A study of Mus musculus with 12 samples.

Results

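Primitive endoderm is the layer of the late blastocyst that faces the blastocoel and later forms the yolk sac endoderm, and its cells lay down large amounts of basement membrane. The set described here holds 10 genes, picked by symbol: the endoderm transcription factor genes Gata4, Gata6 and Sox17, the laminin chain genes Lama1, Lamb1 and Lamc1, the type IV collagen chain genes Col4a1 and Col4a2, and the genes for the matrix glycoproteins SPARC (Sparc) and nidogen-1 (Nid1). All 10 were among the 22034 gene symbols counted for ribosome footprints and the 49997 counted for poly(A) RNA. Footprints are the stretches of mRNA that ribosomes shield from RNase I. The count of a gene reflects both how much of its mRNA is present and how many ribosomes sit on each copy. Counts were scaled to a common library size, so changes are relative to the other genes and a shift shared by all genes would not show.

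The cells, ES-E14TG2a, are a mouse embryonic stem cell line in which the termination factor eRF1 carries a dTAG degron, a tag that lets the compound dTAG-13 send the protein for degradation. All groups carried this tag and were grown in LIF with the GSK3 inhibitor CHIR99021 and the MEK inhibitor PD0325901. The footprint groups were Gcn2 knockout cells given 500 nM dTAG-13 for 1 h, untreated Gcn2 knockout cells, wild-type cells (no Gcn2 knockout) given the same dose for the same time, and untreated wild-type cells. The RNA groups were treated wild-type and untreated wild-type cells, with no RNA from the knockout. Each group had 2 biological replicates, A and B, giving 12 libraries. The labels name neither a vehicle nor treated cells that lack the tag, so an effect of the compound cannot be told apart from one of eRF1 loss, and nothing says how many clones each genotype stands for.

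In the embryo, FGF4 acting through FGF receptors and the MEK-ERK kinases turns on Gata6 in cells that will become primitive endoderm, and Gata4 and Sox17 follow. MEK inhibition holds stem cells away from that fate. Laminin-111 is a cross-shaped trimer of the α1, β1 and γ1 chains (Lama1, Lamb1, Lamc1) that forms a first sheet on the cell surface. Nidogen-1 binds the laminin γ1 chain and bridges it to the network of type IV collagen, whose common trimer has a pair of α1 chains (Col4a1) and a single α2 chain (Col4a2), and SPARC binds collagens.

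Footprint libraries held 7874804 to 19691716 counts and RNA libraries 17462458 to 24256097, with the fewest footprint counts in treated wild-type replicate A and the fewest RNA counts in treated replicate B. Eif2ak4, which encodes Gcn2, had 2.33 to 5.36 CPM (counts scaled to a common library size, with TMM factors) in the 4 knockout libraries and 27.7 to 34.0 in the 4 wild-type footprint libraries. All 10 embryonic stem cell markers looked at, such as Nanog (1605 to 2142 footprint CPM), were found in every library. Their summed footprint level was 9508 to 10585 CPM, against 5.68 to 10.7 CPM for 7 primitive endoderm markers (Gata4, Gata6 and Sox17 among them), 4.36 to 9.29 CPM for 8 fibroblast markers (Postn and Twist2 at 0 throughout) and 61.9 to 76.0 CPM for 6 trophoblast markers, most of it from Tfap2c. In RNA the Pou5f1 symbol held only 4.89 to 6.88 CPM, against 1048 to 1395 CPM in footprints, so a low count in the RNA table does not by itself show a low mRNA level.

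Col4a1 and Col4a2 lie head to head on chromosome 8. In the RefSeq annotation of GRCm38.p6 (Col4a1 at 11198423 to 11312889, Col4a2 at 11312805 to 11449287) both genes share 85 bases. No source used here states whether counting used strand, so reads from that stretch could belong to either gene. The promoter windows of the pair, 250 bases before to 50 bases after the annotated start of the transcript used, are shown because the collagen pair is set against each other in the results. Capitals mark the 78 bases (11312777 to 11312854) that both windows hold, read from opposite strands, each in the direction of its own gene.
Col4a1 (chr8:11312777-11313076, minus strand): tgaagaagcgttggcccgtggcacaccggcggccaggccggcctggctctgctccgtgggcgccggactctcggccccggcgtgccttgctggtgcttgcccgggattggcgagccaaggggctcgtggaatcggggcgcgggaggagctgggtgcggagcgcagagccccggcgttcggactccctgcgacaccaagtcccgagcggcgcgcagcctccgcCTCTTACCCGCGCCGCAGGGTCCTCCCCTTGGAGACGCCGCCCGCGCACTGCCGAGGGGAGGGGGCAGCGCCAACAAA
Col4a2 (chr8:11312555-11312854, plus strand): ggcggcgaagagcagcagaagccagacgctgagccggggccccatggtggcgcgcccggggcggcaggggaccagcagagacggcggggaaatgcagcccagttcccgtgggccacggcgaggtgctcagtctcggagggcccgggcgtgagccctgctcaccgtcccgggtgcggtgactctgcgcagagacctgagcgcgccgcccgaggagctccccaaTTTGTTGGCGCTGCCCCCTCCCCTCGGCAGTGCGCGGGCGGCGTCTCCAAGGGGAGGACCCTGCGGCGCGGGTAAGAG

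Windows were listed for 5 of the 10 genes (also Lamb1, Nid1 and Sparc). Searched on both strands, the GC box GGGCGG was in 4 of the 5, all but Sparc, and in 35.7% of 32851 windows of the same length. The CCAAT box (CCAAT) was likewise in 4 of 5, against 37.4% of all windows. The CTC box, known from the collagen IV promoter and searched as CCCTNCCC, was in the Col4a1, Col4a2 and Nid1 windows and in 20.1% of all windows, and 1 CTC box and 1 GC box lay in the bases that the collagen pair shares. Neither a TATA box (TATAAA, 13.6% of all windows), a GATA motif (AGATAA or TGATAA, 18.6%) nor a SOX motif (CATTGT, 12.6%) was found in the 5. These are matches of letters only, and motifs may overlap each other.

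The endoderm transcription factors were read at few counts. Gata4, a zinc finger activator of endoderm and heart genes, had 13 (A) and 24 (B) footprint counts in treated knockout cells and 64 and 47 in untreated ones. In wild-type cells it had 20 and 35 counts with dTAG-13 and 49 and 68 without. Gata6, which acts before it, had 7 to 20 counts and Sox17, an HMG box factor, 2 to 11 counts in the 8 footprint libraries. In RNA, Gata4 had 40 to 54 counts, Gata6 7 to 12 and Sox17 5 to 8. The 3 genes together made up 2.41 to 5.26 CPM of footprints. With bulk libraries, a small number of cells that express these genes cannot be told apart from a low level in all cells.

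The genes of secreted proteins were read at 20 to 12374 footprint counts a library. Lamc1 ranged from 582 to 835 footprint CPM, Sparc from 403 to 582, Nid1 from 397 to 546, Lama1 from 85.2 to 139 and Lamb1 from 21.7 to 55.4, while Col4a1 had 2.60 to 6.29 and Col4a2 1.79 to 3.20 CPM. The 7 secreted genes summed to 1858 to 2112 CPM in treated and 1651 to 1680 CPM in untreated knockout cells, and to 1832 to 2129 CPM in treated and 1506 to 1825 CPM in untreated wild-type cells. The sums did not overlap in either genotype, but in wild-type cells 1832 CPM (treated) lay barely above 1825 CPM (untreated). Among single genes tested, both treated libraries were above both untreated ones in 32.5% in knockout and 22.3% in wild-type cells. Most of each sum came from Lamc1, Sparc and Nid1. Taken singly, Sparc overlapped in wild-type cells, and Col4a2 was lower in treated knockout cells. CPM are not divided by length, because no coding or transcript lengths were used here, so levels of different genes are not ranked against each other.

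**Figure D1:**
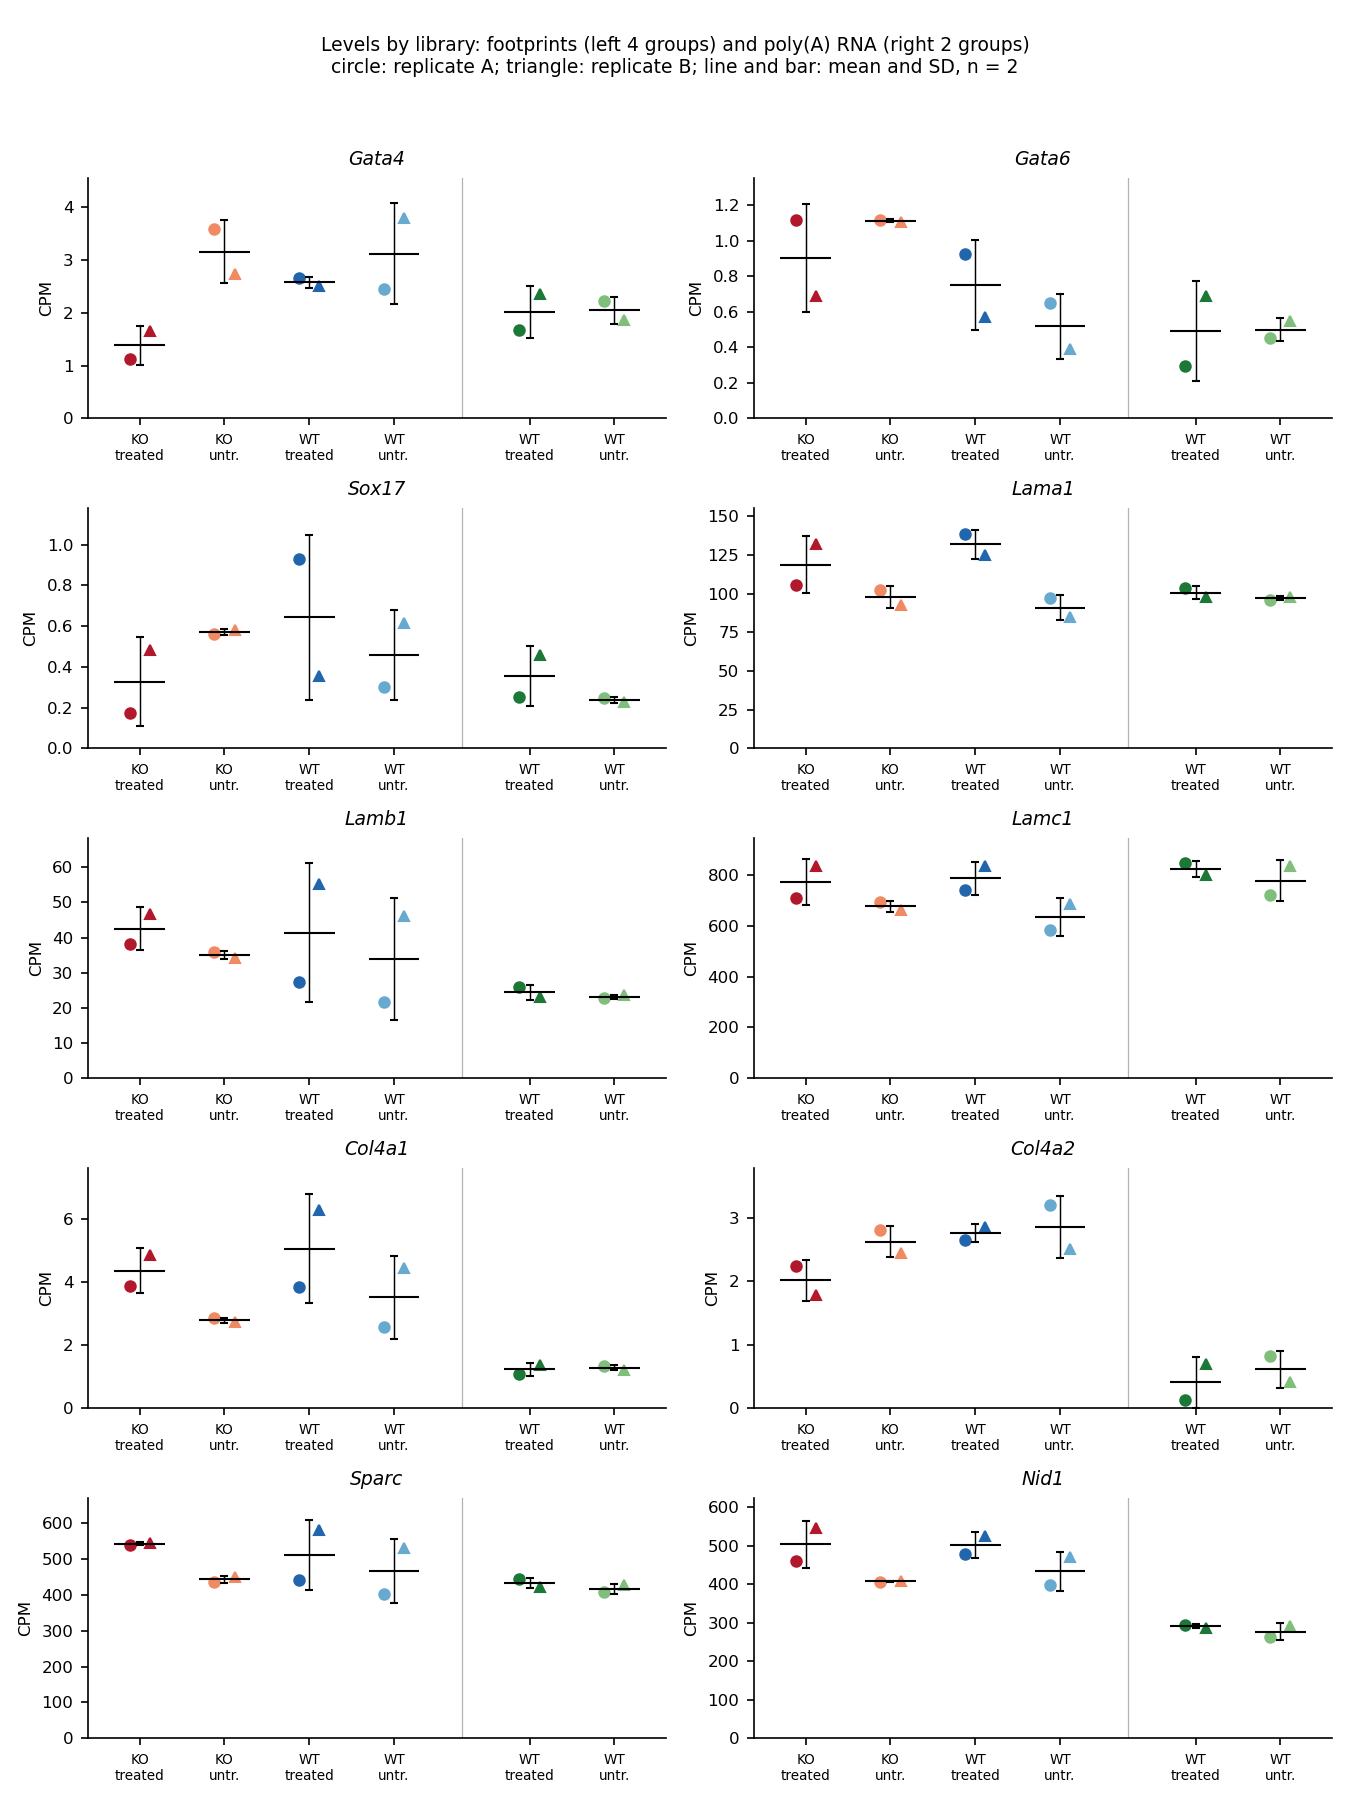
CPM of each of the 10 genes by library, with footprints in the left 4 groups and poly(A) RNA in the right 2; circles are replicate A, triangles replicate B, lines and bars the mean and SD of 2 libraries. Gata4 footprints are lowest in the treated knockout (1.12 and 1.65 CPM), Lama1 footprints lie higher in treated (139 and 125 CPM) than in untreated wild-type cells (96.9 and 85.2 CPM), and the Lamb1 replicates stand far apart in wild-type cells.

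The first comparison set treated wild-type cells (1 h of dTAG-13) against untreated ones for footprints. Lama1, the α chain by which laminin-111 is held at the cell surface, was the single gene of the 10 that was called, and it rose. It had 139 (A) and 125 (B) CPM in treated cells, against 96.9 and 85.2 CPM in untreated cells, so the groups did not overlap. The log2 change was 0.53 (SE 0.135, 95% interval 0.24 to 0.82; edgeR quasi-likelihood test, Benjamini-Hochberg adjusted p = 0.0407), a 1.45-fold rise. Of all 12267 genes tested 4.88% were called, so 1 call among 10 members is near that background. The Lama1 call was lost without any 1 of the 8 footprint libraries (log2 change 0.44 to 0.63, adjusted p = 0.0556 to 0.168) and with the wild-type libraries alone (0.53, adjusted p = 0.129).

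The partner chains moved less or varied more. Lamc1, the chain common to most laminins, had 739 and 833 CPM in treated and 582 and 687 CPM in untreated wild-type cells. Its change of 0.31 (SE 0.132) had an unadjusted p of 0.0356 in the quasi-likelihood model of all genes and did not pass (adjusted p = 0.222). Lamb1 had 27.5 (A) and 55.4 (B) CPM in treated and 21.7 (A) and 46.1 (B) CPM in untreated cells, so replicate B was about as far above A in both groups. In the fit by group, which counts that A to B difference as spread, the interval of the Lamb1 change ran from -0.51 to 1.14. It includes no change as well as a rise above 2-fold.

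Nid1 had 478 and 525 CPM in treated and 397 and 469 CPM in untreated wild-type cells, which did not overlap (log2 change 0.21, SE 0.128, adjusted p = 0.406). Sparc had 443 and 582 CPM in treated and 403 and 530.2 CPM in untreated cells (0.14, SE 0.152, adjusted p = 0.696). Col4a1 had 3.85 and 6.29 CPM in treated and 2.60 and 4.46 CPM in untreated cells, with a log2 change of 0.58 (SE 0.304, adjusted p = 0.333). Leaving out each wild-type library in turn gave 0.14 (treated B), 0.84 (treated A), 0.24 (untreated A) and 1.02 (untreated B) for Col4a1. In the same order it gave -0.07, 0.32, -0.05 and 0.35 for Sparc, whose sign turned. Replicate B held 1.63 (treated) and 1.72 (untreated) times the CPM of A for Col4a1, and 1.31 and 1.32 times for Sparc. Leaving out 1 library therefore also left the letters unbalanced. Within each letter the treated library was above the untreated one for both genes. The change of Col4a2 was -0.04 (SE 0.277), from 2.65 and 2.86 CPM in treated and 3.20 and 2.51 CPM in untreated cells. In 3 of the 10 genes, Lama1, Lamc1 and Nid1, both treated libraries were above both untreated ones, as they were in 22.3% of all genes tested. The median log2 change was 0.31 over the 10 genes (range -0.28 to 0.58) and -0.01 over all genes.

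Of the transcription factors, none passed in wild-type cells. Gata4 had a log2 change of -0.28 with an interval from -0.96 to 0.41. For Gata6 the change was 0.42 (interval -0.72 to 1.56) and for Sox17 0.34 (interval -1.07 to 1.75). A 2-fold rise (a log2 change of 1) lies within both of these intervals and a 2-fold fall within that of Sox17.

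In Gcn2 knockout cells Gata4 was the single gene of the 10 that passed, and it fell. It had 1.12 (A) and 1.65 (B) CPM with dTAG-13, against 3.58 and 2.74 CPM without, a 2.25-fold difference with no overlap between the groups (log2 change -1.17, SE 0.335, interval -1.89 to -0.44, edgeR adjusted p = 0.0472). Of all genes tested 8.88% were called in this comparison, so 1 in 10 is again near the background. The call was lost without any 1 of the 4 knockout libraries. Leaving out a treated knockout library gave a change of -0.97 for A (adjusted p = 0.311) and of -1.53 for B (adjusted p = 0.155). Leaving out an untreated knockout library gave -0.96 for A (adjusted p = 0.229) and -1.35 for B (adjusted p = 0.0791). DESeq2 gave no adjusted p for Gata4 here.

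The matrix genes of the knockout lay mostly above 0 without passing. Col4a1 had 3.87 and 4.88 CPM in treated and 2.85 and 2.74 CPM in untreated knockout cells (log2 change 0.65, SE 0.312, adjusted p = 0.221). Nid1 had 461 and 546 CPM against 406 and 408 CPM (0.31, SE 0.128, adjusted p = 0.159). Sparc had 539 and 546 CPM in treated and 437 and 450.2 CPM in untreated cells, the tightest replicates of the set in the treated group (0.29, SE 0.152, adjusted p = 0.265).

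For the laminin chains in the knockout the changes were 0.28 for Lama1 (SE 0.134, adjusted p = 0.215), 0.28 for Lamb1 (SE 0.363) and 0.19 for Lamc1 (SE 0.132). Col4a2 had 2.24 and 1.79 CPM in treated and 2.80 and 2.45 CPM in untreated knockout cells (log2 change -0.39, SE 0.285, adjusted p = 0.43). In 6 of the 10 genes, all of them secreted, both treated libraries were above both untreated ones, against 32.5% of all genes tested. In 3 of 10, Gata4, Sox17 and Col4a2, both were below, against 27% of all genes. The median log2 change was 0.23 over the 10 genes and 0.04 over all genes.

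**Figure D2:**
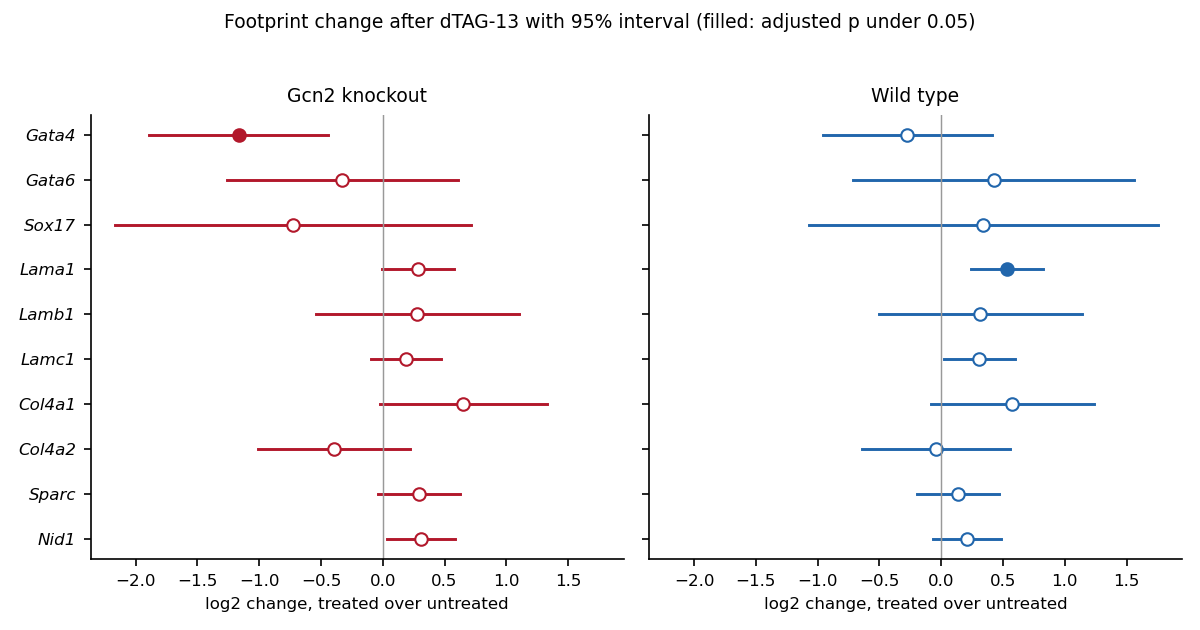
Footprint log2 change, treated over untreated, of the 10 genes in Gcn2 knockout (left) and wild-type cells (right), with 95% intervals from the edgeR fit of 8 libraries; filled points have an adjusted p under 0.05. Gata4 in the knockout (-1.17) and Lama1 in wild-type cells (0.53) are filled, and the intervals of Gata6 and Sox17 are the widest.

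Whether the response differed without Gcn2 was tested as the change in knockout cells less that in wild-type cells, an interaction term. None of the 10 genes passed in edgeR, 0 had an unadjusted p under 0.05, and DESeq2 called 0 of the 5 to which it gave an adjusted p. Over all genes 0.0489% were called. The difference was -0.89 for Gata4 (SE 0.464, adjusted p = 0.555) and -0.25 for Lama1 (SE 0.190, adjusted p = 0.717), so the calls of these genes in 1 genotype each are not shown to be specific to it. For Nid1 the difference was 0.09 with an interval from -0.30 to 0.49, and for Lamc1 -0.12 with an interval from -0.52 to 0.28.

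Before treatment, untreated knockout cells were set against untreated wild-type cells. None of the 10 genes passed in edgeR, and DESeq2 called 0 of 8. Over all genes 0.00815% passed, which is 1 gene, Eif2ak4. Gata6 alone of the 10 had an unadjusted edgeR p under 0.05, against 733 of all 12267 genes. It had 20 and 19 counts (1.12 and 1.11 CPM) in untreated knockout cells and 13 and 7 counts (0.65 and 0.39 CPM) in untreated wild-type cells, a log2 difference of 1.07 (SE 0.440, edgeR adjusted p = 0.78). Lamc1 averaged 677 ± 21.9 CPM in untreated knockout and 635 ± 74.4 CPM in untreated wild-type cells (SD, n = 2 each). Sparc averaged 444 ± 9.21 and Nid1 407 ± 1.36 CPM in untreated knockout cells, against 466 ± 90.2 and 433 ± 51.1 CPM in untreated wild-type cells.

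Poly(A) RNA was compared between treated and untreated wild-type cells. Of the 10 genes 9 passed the filter on low counts, Sox17 being the exception, and none of the 9 was called by edgeR or by DESeq2, with 0 at an unadjusted p under 0.05. Over all 15955 genes tested 0.163% were called. Lamc1 had 845 and 801 RNA CPM in treated and 719 and 834 CPM in untreated cells (log2 change 0.08, interval -0.03 to 0.19). For Sparc the change was 0.05 (interval -0.04 to 0.15), from 443 and 423 CPM in treated and 408 and 427 CPM in untreated cells.

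The RNA of Lama1 had 104 and 97.8 CPM in treated and 96.2 and 97.9 CPM in untreated cells, groups that overlapped (log2 change 0.06, interval -0.06 to 0.17). Nid1 had a change of 0.07 (interval -0.03 to 0.17) and Lamb1 of 0.09 (interval -0.10 to 0.27). Without untreated RNA library B, Lamc1 (0.20, edgeR adjusted p = 1.15e-05) and Nid1 (0.15, adjusted p = 0.0213) passed. The collagens were near the limit of counting in RNA. Col4a1 had 26 and 24 counts in treated and 33 and 27 in untreated cells, and Col4a2 had 3 and 12 counts in treated and 20 and 9 in untreated cells. In 1 of 10 genes, Sox17 with 6 and 8 counts against 6 and 5, both treated libraries were above both untreated ones in CPM, as in 16.6% of the genes tested.

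Translational efficiency, the footprint change beyond the RNA change, was tested as an interaction over the 8 wild-type libraries. None of the 10 genes passed in edgeR, DESeq2 called 0 of the 5 to which it gave an adjusted p, and 1.47% of all 12887 genes were called. Lama1 alone of the 10 had an unadjusted edgeR p under 0.05, against 1836 of all 12887 genes. Its footprints rose while its RNA did not pass, and the interaction was 0.48 (SE 0.136, interval 0.17 to 0.78, edgeR adjusted p = 0.121; adjusted p = 0.0571 to 0.482 over the alternatives). For Nid1 the interaction was 0.14 (SE 0.149), for Lamc1 0.22 (SE 0.164) and for Sparc 0.08 (SE 0.209). Col4a1 had 0.66 (SE 0.506) and Col4a2 0.69 (SE 0.784), both with intervals that include 0.

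**Figure D3:**
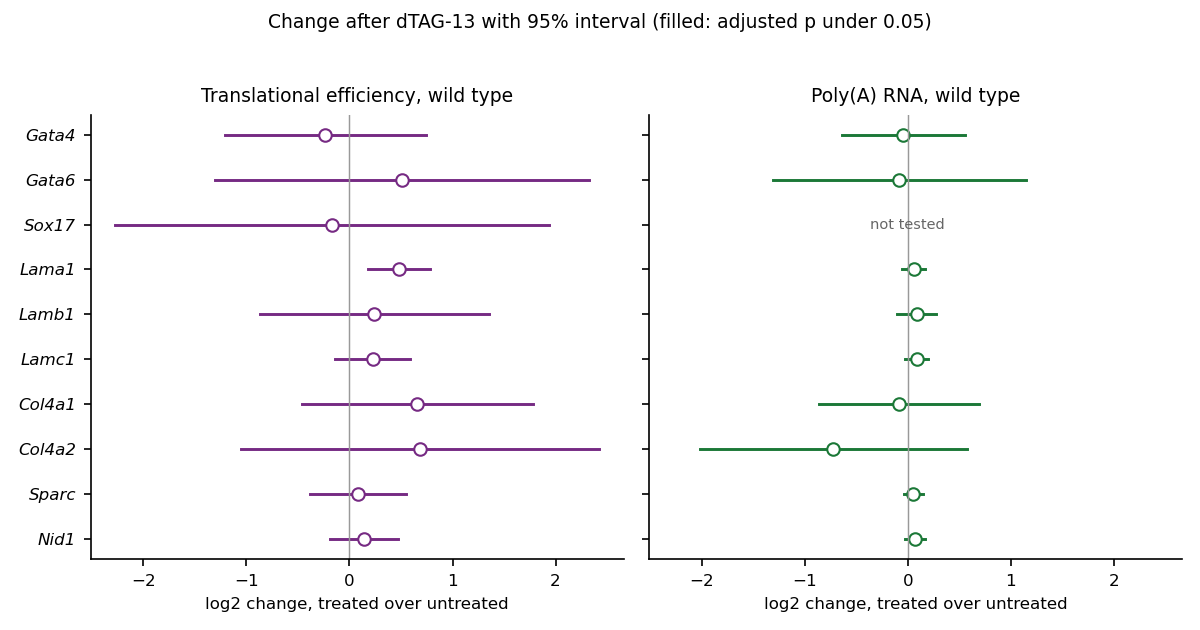
Log2 change, treated over untreated, in translational efficiency (left) and poly(A) RNA (right) of wild-type cells for the 10 genes, with 95% intervals from edgeR; no point has an adjusted p under 0.05. RNA intervals are narrow for Lama1, Lamc1, Sparc and Nid1 and wide for the sparsely counted Gata6 and Col4a2.

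Footprint and RNA levels of a gene can be set beside each other without its length, if both were counted over like regions, which no source used here states. In treated wild-type cells Col4a2 had 6.75 and Col4a1 4.11 times as many footprint as RNA CPM, and in untreated ones 4.63 and 2.73 times. These ratios rank above 95% (Col4a2) and 92.8% (Col4a1) of genes in treated cells and 93.5% and 89.4% in untreated cells. They rest on 3 to 33 RNA counts a library, and over the pairs of a footprint with an RNA library the ratio of Col4a2 spans 3.84 to 22.8 in treated and 3.05 to 7.80 in untreated cells. Nid1 stood at 1.72 in treated and 1.56 in untreated cells, while Lamc1 stood at 0.96 and 0.82, close to the middle of all genes (above 61.5% and 55.3%). For Lama1 the ratio was 1.31 in treated and 0.94 in untreated cells, for Sparc 1.18 and 1.12, and for Lamb1 1.69 and 1.46.

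Subunits of a trimer were compared as ratios of footprint counts within a library, which do not depend on library scaling. They are not scaled for length and do not give chain stoichiometry. The Col4a1 to Col4a2 ratio was 1.73 (A) and 2.73 (B) in treated and 1.02 and 1.12 in untreated knockout cells, without overlap. In wild-type cells it was 1.45 and 2.20 with dTAG-13 and 0.81 and 1.78 without, with overlap. The counts behind these ratios were 20 to 88 per gene and library, and 2 libraries against 2 were not tested.

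The Lama1 to Lamc1 ratio was 0.150 and 0.158 in treated and 0.148 and 0.140 in untreated knockout cells, and 0.187 and 0.150 in treated and 0.167 and 0.124 in untreated wild-type cells. The Nid1 to Lamc1 ratio moved little, with 0.651 and 0.653 in treated and 0.586 and 0.617 in untreated knockout cells. In wild-type cells that ratio was 0.646 and 0.630 with dTAG-13, against 0.682 and 0.683 without, so the direction was opposite in the 2 genotypes, a difference that was not tested. The Lamb1 to Lamc1 ratio followed the replicate rather than the treatment in wild-type cells, at 0.0372 in A and 0.0665 in B with dTAG-13 and 0.0373 in A and 0.0671 in B without. In the knockout it was 0.0539 and 0.0560 with dTAG-13 and 0.0519 and 0.0517 without.

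**Figure D4:**
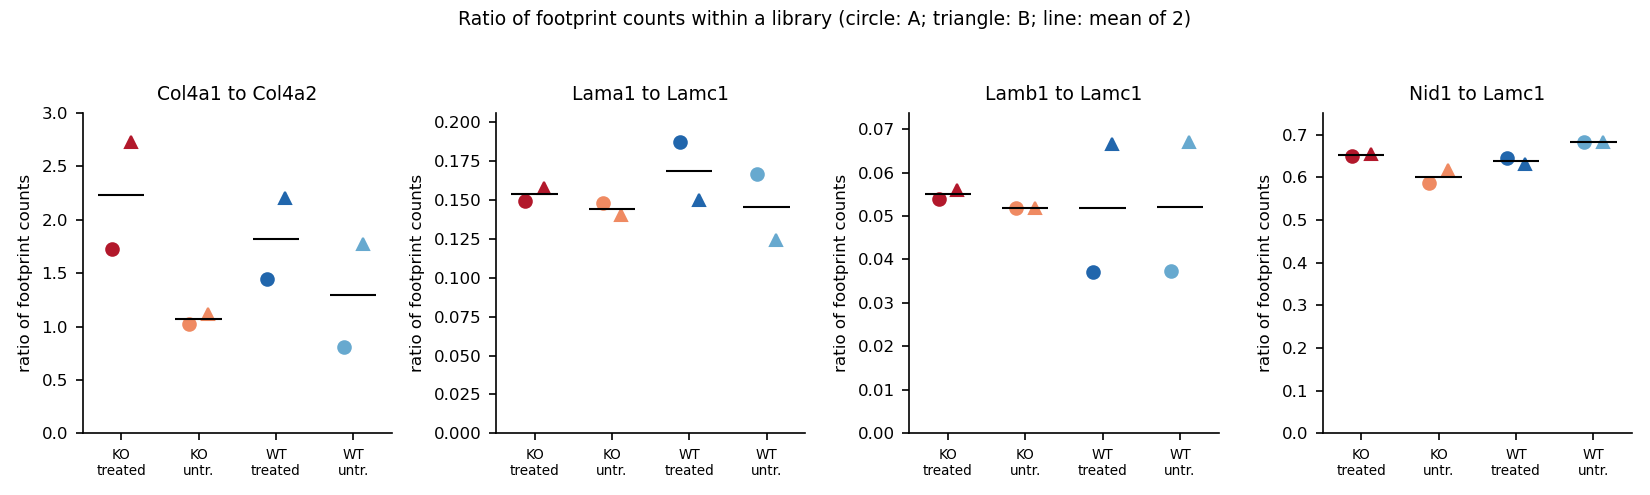
Ratios of footprint counts within each library for 4 pairs of matrix genes, by group; circles are replicate A, triangles replicate B and lines the mean of 2. The Col4a1 to Col4a2 ratio is 1.45 or more in all treated libraries, but also 1.78 in untreated wild-type replicate B. The Lamb1 to Lamc1 ratio separates A from B in wild-type cells.

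Among the 7 secreted genes, the replicates of Lamb1 stood farthest apart in wild-type footprints. Replicate B held 2.02 times the CPM of A in treated and 2.13 times in untreated wild-type cells, against 1.23 times in treated and 0.95 times in untreated knockout cells. In RNA, B held 0.89 times the CPM of A in treated and 1.03 times in untreated cells. Over all 12267 genes 45 (0.367%) were at least as far above A in B in both wild-type groups. Sparc (1.31 times in treated and 1.32 times in untreated cells) and Col4a1 (1.63 and 1.72 times) leaned the same way in wild-type footprints. What set the letters apart was not tested.

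**Figure D5:**
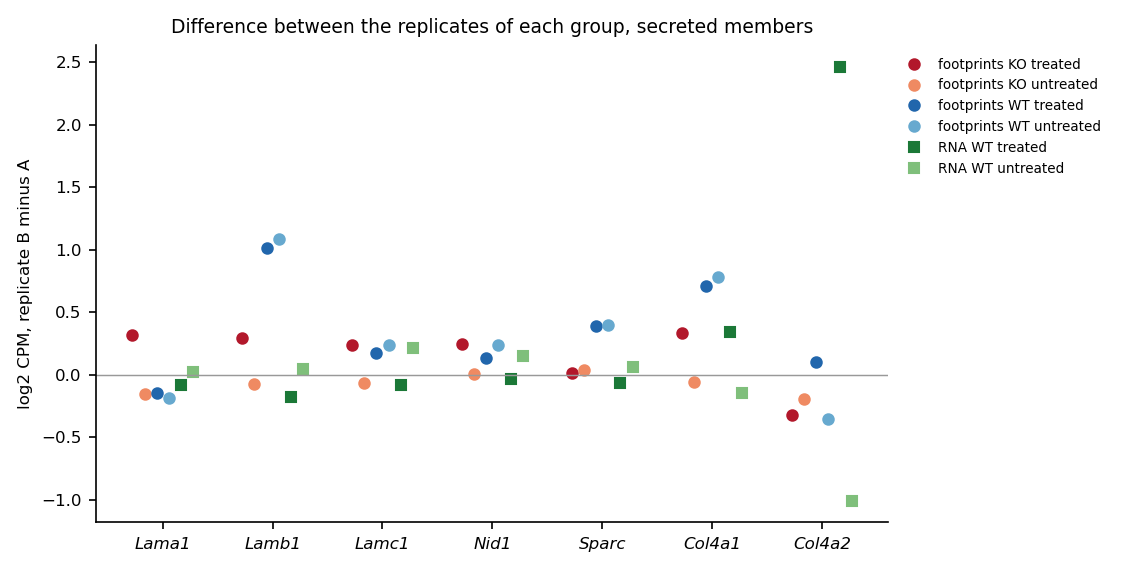
Log2 CPM of replicate B minus replicate A for the 7 secreted genes in each group; circles are footprints and squares poly(A) RNA. Lamb1 lies near 1 in both wild-type footprint groups and between -0.17 and 0.29 in the others, and the Col4a2 RNA points, from 3 to 20 counts, lie farthest apart.

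Likeness among the matrix genes over the 8 footprint libraries, points that share treatment, genotype and library scaling, was uneven. Of 12266 other genes, Nid1 ranked 36th in likeness to Col4a1 (Pearson r of log2 CPM 0.94), Sparc 146th (0.89) and Lamc1 251st (0.86), while the partner chain gene Col4a2 ranked 8695th (-0.32). Nid1 ranked 25th for Lamc1 (0.91), ahead of Lamb1 (479th, 0.77) and Lama1 (736th, 0.73). Lama1 was little like Lamb1 (0.14) or Sparc (0.25), and Col4a2 had a negative r with each of the other 6 secreted genes (-0.54 to -0.20). The genes most like Col4a1 were the condensin gene Ncapd2, Wdr45 and Akr1b10 (0.98 each), and those most like Lamc1 were Wdr90, the endocytic receptor gene Lrp1 and Crim1 (0.95 to 0.96). Gata4 was closer to Sox17 (0.60) and Col4a2 (0.52) than to the other members. The values of these genes rest on few footprint counts a library (13 to 68 for Gata4, 2 to 11 for Sox17 and 20 to 64 for Col4a2). Sparc ranked 28th in likeness to Lamb1 (0.91), and both lay higher in B than in A in wild-type footprints.

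Other genes of the same biology were counted from fixed lists. Of 28 further primitive endoderm genes 17 were tested in footprints, and 0 passed in either genotype (3 at an unadjusted p under 0.05 in each; DESeq2 called 0 in knockout and 1 in wild-type cells). Of 25 further basement membrane genes 15 were tested and 0 passed in either genotype, with median log2 changes of 0.16 in knockout and 0.23 in wild-type cells. Unadjusted, 4 of these had a p under 0.05 in knockout and 5 in wild-type cells, and DESeq2 called 0 and 2. The medians of all genes were 0.04 and -0.01. Of all 12267 genes tested in footprints, 3004 in knockout and 2335 in wild-type cells had an unadjusted edgeR p under 0.05. DESeq2 called 1192 genes in knockout and 806 in wild-type footprints. The unadjusted and DESeq2 counts of each list are to be read beside these.

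Of 22 tested genes for folding and export of collagen and laminin, 1 rose and 1 fell in knockout cells, where 8.88% of all genes were called, and 0 passed in wild-type cells, with 7 and 0 at an unadjusted p under 0.05 (DESeq2 called 3 and 0). Ppib, a prolyl isomerase of the endoplasmic reticulum that helps collagen fold, rose in the knockout (log2 change 0.50, SE 0.118, edgeR adjusted p = 0.02). Sec23a, a coat protein of the vesicles that carry procollagen out of the endoplasmic reticulum, fell (-0.83, SE 0.145, adjusted p = 0.00372). Among 15 receptors Itga6, an integrin chain that binds laminin, rose in the knockout (0.57, SE 0.141, edgeR adjusted p = 0.025). Of the 15 receptors, 4 had an unadjusted p under 0.05 there and DESeq2 called 3. In wild-type cells 0 passed (1 unadjusted, 0 by DESeq2). Among 12 genes of the FGF signal, the Ras exchange factor gene Sos1 fell in the knockout (-0.82, SE 0.154, edgeR adjusted p = 0.0058), with 4 unadjusted and 1 by DESeq2. In wild-type cells 0 passed (2 unadjusted, 1 by DESeq2). With 2 of 22, 1 of 15 and 1 of 12 genes called, these lists are near the background of the knockout. In RNA and in translational efficiency 0 genes of these 5 lists passed in edgeR or DESeq2. At an unadjusted p under 0.05 there were 0 to 2 a list in RNA and 0 to 4 in translational efficiency. Over all genes, 819 of 15955 in RNA and 1836 of 12887 in translational efficiency had such a p in edgeR.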

How the data were processed

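Ribosome footprints (8 libraries) and poly(A) RNA (4 libraries) were deposited as raw counts per gene symbol. Per the submitters' processing notes the tools were CASAVA 1.4, cutadapt and HISAT2 2.1.0 with mm10. No source used here states the counter, its annotation, its strand setting, the region counted or the handling of multi-mapping reads. Each column was assigned through the names in the labels; for treated knockout B the letter in its title was used, since its description repeats the column of A.

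The tests were edgeR's (version 4.0.16, R 4.3.3): filterByExpr with a minimum count of 10, TMM scaling and a robust quasi-likelihood fit across all genes. Tests were two-sided, and a gene was called when its p, adjusted by Benjamini-Hochberg, was under 0.05. The 8 footprint libraries (12267 genes, 4 residual degrees of freedom) and the 4 RNA libraries (15955 genes) were fitted by group. For translational efficiency the interaction between treatment and assay was tested (12887 genes, 83 symbols of the table joined through RefSeq synonyms, TMM within assay). SEs were derived by dividing the change by the root of F, and 95% intervals from the t distribution of the fit. Alternatives included DESeq2 1.42.0. The code was tested on simulated data. Promoter sequences are from RefSeq (GRCm38.p6).

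All 10 members were named, with up to 3 called genes per list and comparison and the 3 nearest genes of Col4a1 and Lamc1. Members and lists were chosen with earlier results of these data known.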

Additional observations from a re-analysis of the deposited data

Results flagged for a closer look

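The ratio of Nid1 to Lamc1 footprint counts within a library moved in opposite ways in the 2 genotypes. It was 0.0504 higher in treated than in untreated knockout cells (means 0.652 and 0.602) and fell by 0.0444 in treated against untreated wild-type cells (means 0.638 and 0.683, n = 2 libraries each). In each genotype the treated libraries did not overlap the untreated ones. This ratio was the only hit of a search for that pattern over the within-library ratios and the CPM of the 10 members. How often the pattern arises among other genes was not computed. Neither gene passed in the difference between genotypes (edgeR adjusted p = 0.915 for Nid1 and 0.882 for Lamc1). The changes differed by 0.0948, and that difference was not tested.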

How the results depend on the processing

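Of 75 recomputed counts of called members, 57 stayed within 1.5 times of the reported one and 18 moved. The 57 include counts of 0 that stayed at 0 in the comparisons where no member was called, so they do not measure how firm the Lama1 and Gata4 calls are. In treated wild-type against untreated wild-type footprints the count was 1, and it was 0 with the wild-type libraries alone, 2 (Lama1 and Lamc1) with a replicate block within genotype, and 0 without each library in turn. In the knockout the count was 1, and it was 0 with DESeq2, which gave Gata4 no adjusted p, 4 (Gata4, Col4a1, Sparc and Nid1) with a replicate block within genotype, and 0 to 1 without each library. With that block 3149 of the 12267 genes tested were called in knockout and 2109 in wild-type footprints, so calls rose over all genes as well. With that block 1 member, Lamb1 (log2 difference 0.62, adjusted p = 0.0151), passed between untreated knockout and untreated wild-type cells, against 0 without it. In RNA 0 to 2 passed without each library. With 1 replicate block for all libraries of a fit, the count stayed at 1 in wild-type and 1 in knockout footprints and 0 in the other comparisons. With the block within genotype, the Lamb1 change in treated against untreated wild-type footprints was 0.30 (SE 0.121, edgeR adjusted p = 0.0887). No label says that a letter marks a shared batch or day. The correlation of the A to B difference between treated and untreated cells was 0.17 in knockout and 0.65 in wild-type footprints and -0.00 in RNA. Of 720 recomputed changes of members 50 turned in sign, none of them past the threshold (lowest adjusted p 0.616), while Lama1 in wild-type and Gata4 in knockout footprints kept theirs. Leaving out single libraries gave 47 of the 50 and the cause was not tested. In treated against untreated wild-type footprints these were, with their range over the libraries left out, Sox17 (-0.33 to 1.04), Lamb1 (-0.30 to 0.96), Col4a2 (-0.20 to 0.15), Sparc (-0.0707 to 0.35) and Gata4 (-0.56 to 0.0658). In the difference between genotypes these were Lamb1 (-0.68 to 0.54), Col4a1 (-0.36 to 0.48), Nid1 (-0.0701 to 0.21) and Sparc (-0.0581 to 0.34). Between untreated genotypes these were Gata4 (-0.26 to 0.37), Sox17 (-0.10 to 0.91), Lamb1 (-0.39 to 0.69), Lamc1 (-0.0207 to 0.22), Col4a2 (-0.28 to 0.065), Col4a1 (-0.67 to 0.11), Sparc (-0.26 to 0.14) and Nid1 (-0.20 to 0.0356). In RNA these were Gata4 (-0.29 to 0.20), Lamc1 (-0.0182 to 0.20), Nid1 (-0.00502 to 0.15), Gata6 (-0.75 to 0.47), Lamb1 (-0.0107 to 0.17), Col4a1 (-0.25 to 0.0916) and Col4a2 (-2.26 to 0.15). In translational efficiency these were Lamb1 (-0.38 to 0.89), Sparc (-0.13 to 0.29), Gata4 (-0.52 to 0.11), Sox17 (-0.86 to 0.51), Gata6 (-0.0379 to 1.18) and Col4a2 (-0.19 to 2.20). With the block within genotype, the difference between untreated genotypes turned for Lama1 (-0.0179), Col4a1 (0.0162) and Sparc (0.12). Without a library a group of 1 is assumed to vary like the others.

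Counts over all genes moved more. Wild-type footprint calls were 599, against 19 alone, 931 and 2109 with the block (common, within genotype), 1048 unfiltered and 197 to 334 without single libraries where they moved. Knockout calls were 1089, against 1893 alone, 3149 with the block within genotype, 1658 unfiltered and 215 to 601 without each knockout library. The difference gave 6, against 116 (DESeq2), 192 (unfiltered), 39 and 733 (blocks) and 0 to 32 (libraries left out). Untreated genotypes gave 1, against 31, 113, 14 and 301, and 3 to 10 where leaving out a library moved it. RNA gave 26, against 8 (DESeq2), 16 (block) and 14 to 267. Translational efficiency gave 190, against 435, 459, 404 and, without single libraries, 0 to 671, with 0 whenever an RNA library was left out. Levels and ratios scaled by length were not run, since no coding or exon lengths were used here. Gata6, Sox17 and the collagen RNA are limited by counting.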
